A study of Mus musculus with 2 samples.

Results

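The genes of DNA replication and S phase were followed in mouse primary chondrocytes, the cells of cartilage, before and 24 h after mechanical loading. The set has 44 genes, listed by the role of their proteins and matched to probes by RefSeq transcript: origin licensing and helicase loading (11 genes), helicase activation (4), polymerases and primase (6), the sliding clamp with its loader, the single-strand binding protein and lagging strand maturation (11), nucleotide supply (4), regulators of S phase entry (4), and chromatin assembly, maintenance and repair (4). All 44 had a probe among the 20660 genes that the arrays named. A total of 41 were well above background on both arrays, which is called detected here, as were 14231 genes in all.

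Total RNA of chondrocytes from 6-day-old C57BL/6J mice was hybridised to 2 one-colour arrays, 1 per time point. Cells had been kept for 48 h on fibronectin-coated stretch chambers. One array holds RNA taken before loading, and the other RNA from 24 h after the cells were stretched for 30 min, by 10% of their length at a rate of 0.5 Hz. Since a time point has only 1 array, differences have no replicate error, and neither tests nor p-values are given. Cells kept unloaded for the same 24 h were not analysed here, so strain and the added time in culture cannot be told apart. The value of a gene is its spot intensity after background subtraction, in arbitrary units, and the comparison is the log2 ratio of 24 h over before loading, with each array scaled to the 75th percentile of its probes, which lay at 466 on both. The ± after a ratio is the scanner software's own error of both spots, with a median of 0.20 over detected genes. It holds the error within an array and not the spread between cultures. Probes spotted at least 8 times varied less than this, with a median SD of 0.08 between spots over 259 probes.

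Replication is prepared in G1, when the origin recognition complex, Cdc6 and Cdt1 load the MCM2 to MCM7 helicase onto origins. At the start of S phase the helicase is activated by Cdc45, the GINS complex and Mcm10, and polymerases then copy both strands with the help of the PCNA clamp, the RFC clamp loader and the RPA single-strand binding protein. Many of these genes are transcribed in late G1 under the E2F factors, which retinoblastoma family proteins hold back, whereas the genes of mitosis are typically transcribed later, in G2. Chondrocytes of young mice divide in culture, and dividing chondrocytes form columns in the growth plate.

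Promoter windows were searched for motifs of both programmes. The windows shown are the 3 of members among the lowest ratios that hold a motif (Mcm5, Rrm1 and Mcm10), that of the member with the highest ratio (E2f2), and, for contrast, that of Cenpa, a mitotic gene chosen after its value was seen. They come from RefSeq (GRCm38.p6), read 5′ to 3′ on the gene's strand from 250 bases before to 30 bases after the annotated start. Capitals mark an E2F-type motif (TTTCGCGC, TTTGGCGC, TTTCCCGC or TTTGCCGC), a CCAAT box (CCAAT) or a cell cycle homology region, CHR (TTTGAA or TTCGAA), each on either strand.
Mcm5: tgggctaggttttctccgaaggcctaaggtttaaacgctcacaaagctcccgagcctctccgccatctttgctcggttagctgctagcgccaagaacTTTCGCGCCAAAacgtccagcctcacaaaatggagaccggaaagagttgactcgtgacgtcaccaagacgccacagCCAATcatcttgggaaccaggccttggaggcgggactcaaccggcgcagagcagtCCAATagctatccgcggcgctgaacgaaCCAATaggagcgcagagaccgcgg
Rrm1: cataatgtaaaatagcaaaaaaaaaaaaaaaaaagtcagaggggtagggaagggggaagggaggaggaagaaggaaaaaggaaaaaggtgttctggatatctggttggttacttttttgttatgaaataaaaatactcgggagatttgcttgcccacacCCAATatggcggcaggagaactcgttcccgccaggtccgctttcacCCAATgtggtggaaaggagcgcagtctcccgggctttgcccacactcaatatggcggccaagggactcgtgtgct
Mcm10: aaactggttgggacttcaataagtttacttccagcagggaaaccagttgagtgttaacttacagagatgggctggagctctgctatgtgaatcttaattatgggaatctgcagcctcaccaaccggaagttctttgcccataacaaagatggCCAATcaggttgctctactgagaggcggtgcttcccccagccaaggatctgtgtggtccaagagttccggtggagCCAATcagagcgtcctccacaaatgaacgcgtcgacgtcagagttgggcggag
E2f2: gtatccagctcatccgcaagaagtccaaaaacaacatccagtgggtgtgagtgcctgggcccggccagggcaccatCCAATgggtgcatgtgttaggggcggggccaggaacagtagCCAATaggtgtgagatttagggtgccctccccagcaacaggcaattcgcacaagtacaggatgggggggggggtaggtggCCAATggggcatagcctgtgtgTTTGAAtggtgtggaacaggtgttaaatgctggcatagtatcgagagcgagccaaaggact
Cenpa: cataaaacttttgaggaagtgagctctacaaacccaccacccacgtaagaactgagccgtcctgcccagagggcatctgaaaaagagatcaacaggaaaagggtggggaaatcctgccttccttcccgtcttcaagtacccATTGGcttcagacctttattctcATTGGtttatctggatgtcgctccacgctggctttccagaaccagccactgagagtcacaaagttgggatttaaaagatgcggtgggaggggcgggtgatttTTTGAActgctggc
The Mcm5 window, at chr8:75109259-75109538 on the plus strand, held 2 overlapping E2F-type matches, at positions -153 and -149 from the start, which read as 1 run of capitals, and 3 CCAAT boxes. The Rrm1 window, at chr7:102441445-102441724 on the plus strand, held 2 CCAAT boxes, at -91 and -45. The Mcm10 window, at chr2:5012762-5013041 on the minus strand, also held 2, at -98 and -23. For E2f2 1 of its 2 windows is shown, picked by the most kinds of motif and then the most matches in the printed stretch. It lies at chr4:136180532-136180811 on the plus strand, with 3 CCAAT boxes and a CHR at -31. The window was thus selected by the counts given for it. The E2F-type match counted for E2f2 below lies outside the stretch shown. Of the windows printed, only that of Mcm5 held an E2F-type motif. The Cenpa window, at chr5:30666636-30666915 on the plus strand, held 2 CCAAT boxes on the other strand and a CHR after the start, at position 17.

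An E2F-type motif stood in the windows of 13 of the 36 members with a window in the table, or 36.1%. The same letters stood in 4.28% of 11320 detected genes and in 4% of 25 mitotic genes, described further on, and in 30.4% of the 79 other pathway genes with a window. A CCAAT box was found in 63.9% of members, 42.6% of detected genes and 88% of mitotic genes. A CHR was found in 16.7% of members and 16.6% of detected genes, against 84% of mitotic genes. These shares count full windows, which run to 50 bases after the start. In the part before the start alone, the E2F-type share was 22.2% of members and 3.56% of detected genes. The CHR share of that part was 36% of mitotic genes and 14.8% of detected genes. The E2F-type share was thus higher in the members than in detected genes at large, and the CHR share was higher in the mitotic genes. A match of letters is a description and not a binding site.

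**Figure D1:**
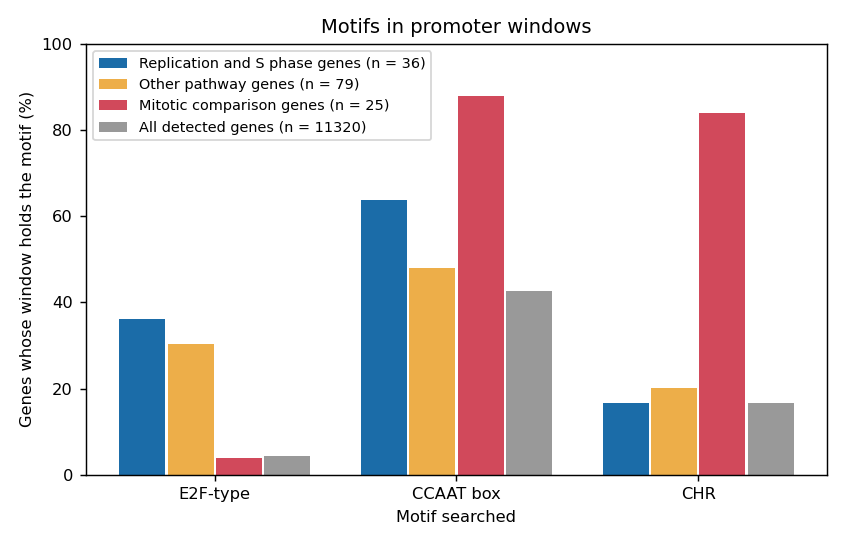
Share of genes (%, y axis) whose RefSeq promoter window holds each motif (x axis) in the members (n = 36), the other pathway genes (n = 79), the mitotic genes (n = 25) and all detected genes (n = 11320). The E2F-type bar is at 36.1% for members and 4% for mitotic genes, whereas the CHR bar is at 16.7% and 84%.

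At 24 h after loading, most members were lower, but by little. The median log2 ratio of the 41 detected members was -0.25, against -0.01 over all detected genes. Of the 41 members, 32 were lower (78%), where 52.4% of all detected genes were lower. A total of 21 members were lower by more than 1 within-array error (51.2%, against 22.9% of all detected genes). Another 2 were higher by more than 1 error (4.88%, against 20.4%), and the other 18 were within their error. With scaling to the array median or to spike-in controls 5 were higher by more than 1 error. These scalings also moved the median of all genes up, to 0.08 and 0.10. The share of all genes for that count was not computed. No member was more than 2-fold lower or higher, where 1.83% of all detected genes were lower and 0.668% higher by that fold. A total of 7 members (17.1%) were more than 1.5-fold lower, against 5.84% of all detected genes: Mcm5, Pole, Rrm1, Rfc5, Tk1, Mcm10 and Rrm2. With scaling to spike-in controls this count was 4, against 4.03% of all detected genes. As reported, 0 members passed 1.5-fold by more than 2 within-array errors. With an error near 0.20 that limit lies close to 2-fold, past which 1.83% of all detected genes were lower. The share of all genes past the limit itself was not computed. Of the 7 members, Rrm2 stood just past 1.5-fold, at 1.53-fold, and the next member above it was Gmnn, at 1.44-fold. None was more than 1.5-fold higher, against 3.65%. In a culture, fewer cells in S phase and less of the RNA per cell cannot be told apart.

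**Figure D2:**
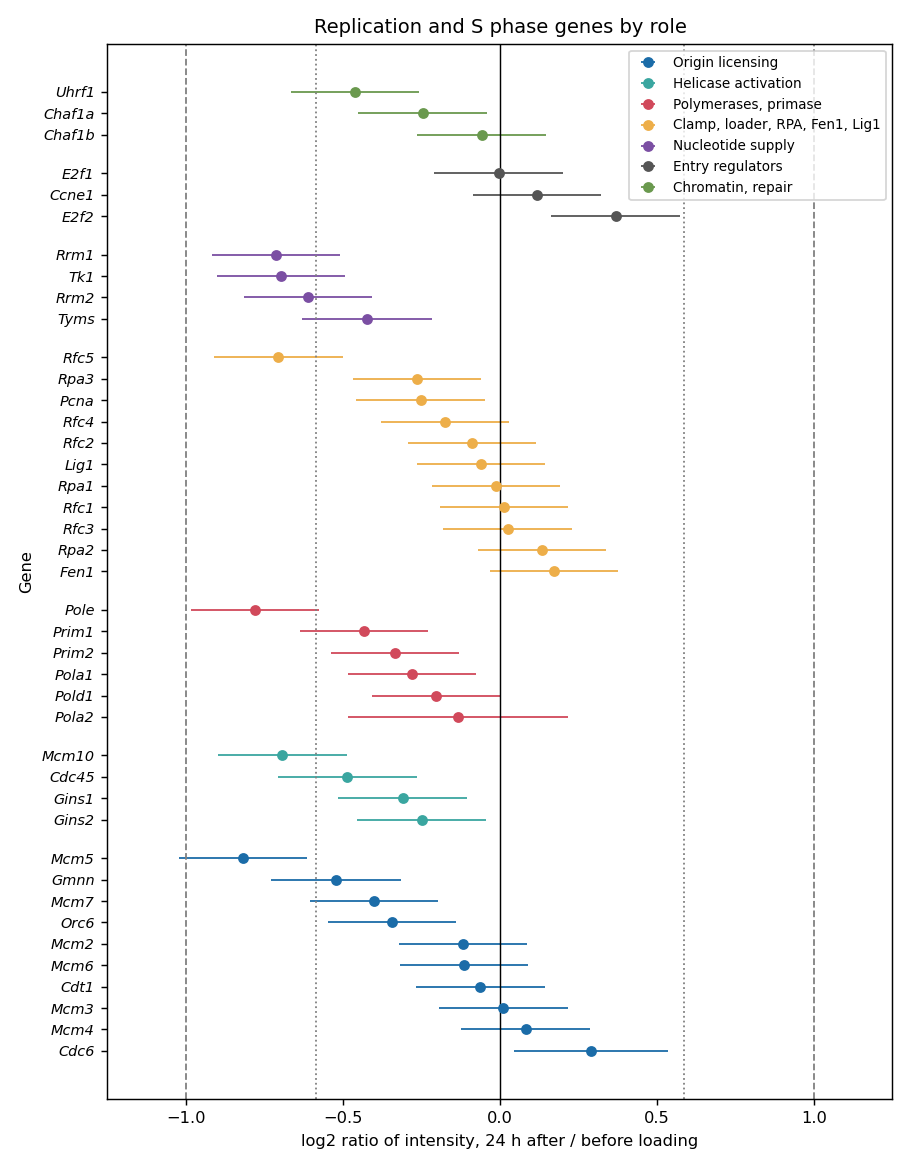
Log2 ratio of intensity, 24 h after over before loading (x axis), of the 41 detected members (y axis), coloured by role. Points are 1 array against 1 array, bars are ± 1 within-array error, and dotted and dashed lines mark 1.5-fold and 2-fold. All 4 nucleotide supply genes lie between -0.71 and -0.42, while the licensing genes spread from -0.82 to 0.29.

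Origin licensing showed the widest spread. Of its 10 detected genes 7 were lower, with a median of -0.12, which was 0.00015 when the arrays were scaled to spike-in controls. Mcm5, a subunit of the MCM2 to MCM7 helicase, had the lowest ratio of all members: its intensity was 1539 before and 872 at 24 h, 1.76-fold lower (-0.82 ± 0.20), and only 2.85% of detected genes had a lower ratio. Its 5 partner subunits did not share this value. Mcm7 went from 5529 to 4187 (-0.40), whereas Mcm2 (1822 to 1679, -0.12) and Mcm6 (14072 to 12994, -0.11) stayed within their error. Mcm3 (3292 to 3316, 0.01) and Mcm4 (3700 to 3913, 0.08) were marginally higher, also within error. The ratio of Mcm4, the highest of the 6, exceeded that of Mcm5, the lowest, by 0.90 ± 0.29, although the proteins act in 1 ring. As the extremes of the ring, this pair shows its largest difference. Each of the 6 was read by 1 probe.

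The loading factors differed too. Geminin (Gmnn), which binds Cdt1 and blocks relicensing after S phase has begun, was lower, at 292 before and 203 at 24 h (-0.52 ± 0.21). Cdt1 itself was 2060 and 1972 (-0.06), so the ratio of Cdt1 exceeded that of geminin by 0.46 ± 0.29. Of the 29 spots around the geminin spot, 4 were also more than 2-fold lower and 1 was higher. Orc6, a subunit of the origin recognition complex, went from 3633 to 2859 (-0.34). Cdc6, which joins Cdt1 in loading the helicase, was 1 of the 2 members above their error, at a low intensity of 57.9 before and 70.7 at 24 h (0.29 ± 0.24). Its second probe was well above background at 24 h only (20.1 before, 34.2 at 24 h). Against its own dim earlier intensity, the later value was 1.70-fold higher (0.77 ± 0.40). Orc1, the subunit that binds origins in G1, was well above background on neither array (17.1 and 10.6) and gets no ratio.

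All 4 genes of helicase activation were lower beyond their error, with a median of -0.40. Mcm10, which travels with the active helicase, was 593 before and 367 at 24 h, 1.62-fold lower (-0.69 ± 0.20). Cdc45, a part of the active helicase, went from 129 to 92.4 (-0.49 ± 0.22). The GINS subunits were close to each other, Gins1 at 451 and 364 (-0.31) and Gins2 at 383 and 322 (-0.25), with a difference of 0.06 ± 0.29 between them.

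All 6 polymerase and primase genes were lower, 4 of them beyond their error, with a median of -0.31. Pole, the catalytic subunit of the leading strand polymerase, was 911 before and 530 at 24 h, 1.72-fold lower (-0.78 ± 0.20). A second, dim probe of Pole was well above background on neither array. Pold1, its counterpart on the lagging strand, was 1713 and 1488 (-0.20), within its error, and the ratio of Pold1 exceeded that of Pole by 0.58 ± 0.29. The genes that make the RNA-DNA primers lay between these. Prim1 went from 2154 to 1596 (-0.43) and Prim2 from 944 to 749 (-0.33), while the polymerase alpha genes were at 750 and 617 for Pola1 (-0.28) and at 35.1 and 32.0 for Pola2 (-0.13 ± 0.35). The primase subunits differed by 0.10 ± 0.29 and the polymerase alpha subunits by 0.15 ± 0.41, so neither pair could be told apart.

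The fork proteins stayed nearest to the bulk of the array. Of 11 genes 7 were lower, 3 beyond their error, and the median was -0.06, but 0.04 with scaling to the array median and 0.06 with scaling to spike-in controls. Pcna, the sliding clamp, was 8780 before and 7364 at 24 h (-0.25). Among the 5 subunits of its loader, Rfc5 stood alone, at 2117 and 1298, 1.63-fold lower (-0.71 ± 0.20). Rfc4 was at 2588 and 2290 (-0.18), with -0.34 on a second probe, and Rfc2 at 1603 and 1505 (-0.09). Rfc1 (3139 to 3165, 0.01) and Rfc3 (406 to 413, 0.02) were level. The ratio of Rfc3, the highest of the 5, exceeded that of Rfc5, the lowest, by 0.73 ± 0.29. In this complex, Rfc5 was the only subunit past its error on the brightest probe. The RPA subunits were at 10096 and 10001 for Rpa1 (-0.01), 476 and 522 for Rpa2 (0.13), and 7492 and 6237 for Rpa3 (-0.26). Fen1, the flap endonuclease that trims Okazaki fragments, was 2717 and 3061 (0.17), and Lig1, the ligase that joins them, was 2875 and 2759 (-0.06). Both were within their error.

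Nucleotide supply was the group with the lowest median, -0.65, and its 4 genes were all lower beyond their error. Both subunits of ribonucleotide reductase, which turns ribonucleotides into the precursors of DNA, were lower by a similar amount. Rrm1 was 2228 before and 1358 at 24 h, 1.64-fold lower (-0.71 ± 0.20), and Rrm2, the subunit that is abundant in S phase, was 2924 and 1912, 1.53-fold lower (-0.61 ± 0.20). They differed by 0.10 ± 0.29. Tk1, the thymidine kinase of dividing cells, was 1232 and 759, 1.62-fold lower (-0.70 ± 0.20). Tyms, which makes thymidylate, was 307 and 229 (-0.42 ± 0.21). The 4 ratios thus lay between -0.71 and -0.42, while those of licensing, a longer list of 10 detected genes, ran from -0.82 to 0.29. The 4 genes of helicase activation ran from -0.69 to -0.25.

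The regulators of S phase entry were level or higher. E2f1, an activating E2F, was nearly the same on both arrays, at 1149 and 1145 (-0.0045). Ccne1, the cyclin E that drives entry with Cdk2, was at 1211 and 1313 (0.12), with 0.13 on a second probe, both within error. E2f2, another activating E2F, had the highest ratio of all members, with 294 before and 380 at 24 h, 1.29-fold higher (0.37 ± 0.21). Its ratio exceeded that of E2f1, the lowest of the 3 detected, by 0.37 ± 0.29. Of the 30 spots around the E2f2 spot, 5 were more than 2-fold lower and 0 higher, so this higher value was read in an area where other spots were lower. The median of the 3 detected genes was 0.12. Ccne2, the second cyclin E gene, was well above background on neither array (3.44 and 14.7).

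All 3 detected genes of chromatin assembly and maintenance were lower, with a median of -0.25. Uhrf1, which brings the maintenance DNA methyltransferase to newly copied DNA, was 1324 before and 962 at 24 h (-0.46). Its second probe was well above background before loading only (21.8 and 7.10), which puts the earlier value at least 1.23-fold higher. The subunits of chromatin assembly factor 1, which places histones behind the fork, were at 459 and 387 for Chaf1a (-0.25) and at 1014 and 974 for Chaf1b (-0.06, and -0.18 on a second probe). Brca1, a protein of homologous recombination, was well above background on neither array (4.63 and 5.88).

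**Figure D3:**
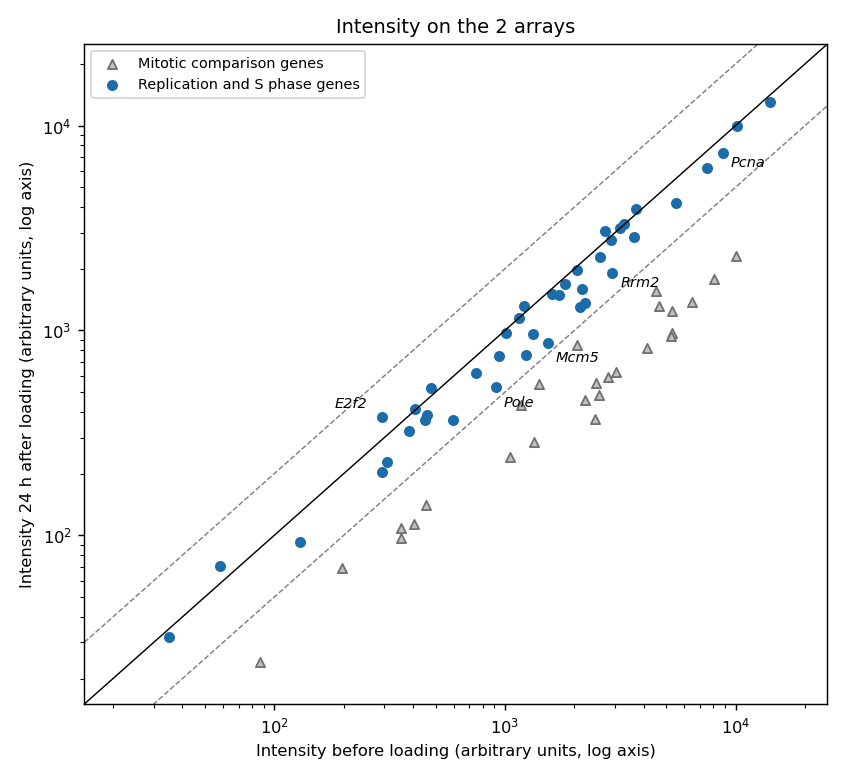
Spot intensity before loading (x axis) against 24 h after loading (y axis), both on log axes in arbitrary units, for the 41 detected members (circles) and 26 mitotic genes (triangles). The solid line is equality and dashed lines are 2-fold: every circle lies within 2-fold and every triangle below it.

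Other genes of the same pathway were read next. They were written as 6 lists of 96 genes in all, of which 93 were detected, with a median log2 ratio of -0.09, which was 0.03 with scaling to spike-in controls. A total of 60 of the 93 were lower and 33 higher, where 52.4% of all detected genes were lower. Beyond their error 39 were lower and 14 higher, against 22.9% and 20.4% of all detected genes, and 12 were more than 1.5-fold lower, against 5.84%. Unlike the members, 6 of them were more than 2-fold lower, against 1.83% of all detected genes. None was more than 2-fold higher, against 0.668%. Ccna2, the cyclin A of S phase and G2, was 2082 before and 596 at 24 h (-1.80 ± 0.20). Dna2, a nuclease of Okazaki fragments and resected ends, was 105 and 25.3 (-2.05 ± 0.31), the lowest ratio of these lists, at an intensity close to background, and its second probe was well above background on neither array. Fanci, of the Fanconi anaemia repair pathway, was 292 and 108 (-1.43). These 3 were the lowest of the 93. With a normexp background correction 3 genes in place of 6 passed 2-fold, and Dna2 stood at -0.93.

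The other genes past 2-fold were spread over roles. Asf1b, a histone chaperone of dividing cells, was 1000 and 428 (-1.22), whereas its paralog Asf1a was 104 and 127 (0.29). Recql4, a helicase that helps origins fire, was 484 and 211 (-1.20), with -1.08 on a second probe. Dbf4, the activator of the Cdc7 kinase that fires origins, was 233 and 107 (-1.12). Cdc7 itself was well above background on neither array. Fancd2, the partner of Fanci, was well above background before loading only (42.7 and 9.07), which puts the earlier value at least 2.40-fold higher. Palb2, a partner of Brca2, was so at 24 h only (13.1 and 30.3), at least 1.76-fold higher there.

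The medians of the lists were -0.07 for the other origin and helicase genes (16 detected, up to 0.16 for Orc5), which turned to 0.05 with scaling to spike-in controls, -0.17 for the other polymerase and fork genes (18, up to 0.40 for Chtf8), -0.14 for the other chromatin assembly genes (10) and -0.28 for replication-coupled repair and checkpoint genes (18, up to 0.26 for Atrip). The other nucleotide supply genes had a median of -0.09 over 17 genes, which turned to 0.03 with the same scaling, from -0.62 for Rrm2b, the reductase subunit induced by p53, to 0.52 for Shmt1, of one-carbon metabolism. Of these 17 genes 11 were lower, 6 of them beyond their error. The difference between this list and the 4 members was not tested. The other S phase regulators had a median of 0.17 over 14 genes, and 9 of them were higher. Their highest was Rbl2, the p130 protein that holds E2F targets back in resting cells, at 85.5 and 122 (0.51 ± 0.23).

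Set beside mitotic genes, the replication genes were of another size. A list of 28 genes of the mitotic kinases, cyclins, spindle and kinetochore had 26 detected, with a median of -2.13. All 26 were more than 2-fold lower (25 of 26 with a normexp correction), against 1.83% of all detected genes. They ran from Cenpa, the centromeric histone, at 2461 and 368 (-2.74), to Cdk1, the kinase that starts mitosis, at 2047 and 846 (-1.27). Each of the 26 had a lower ratio than Mcm5, the lowest member, as did 406 of all detected genes (2.85%). No test of this contrast was possible, since each list was read on the same single pair of arrays. The mitotic list was also chosen with earlier results of these data known, so its counts are a description only.

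**Figure D4:**
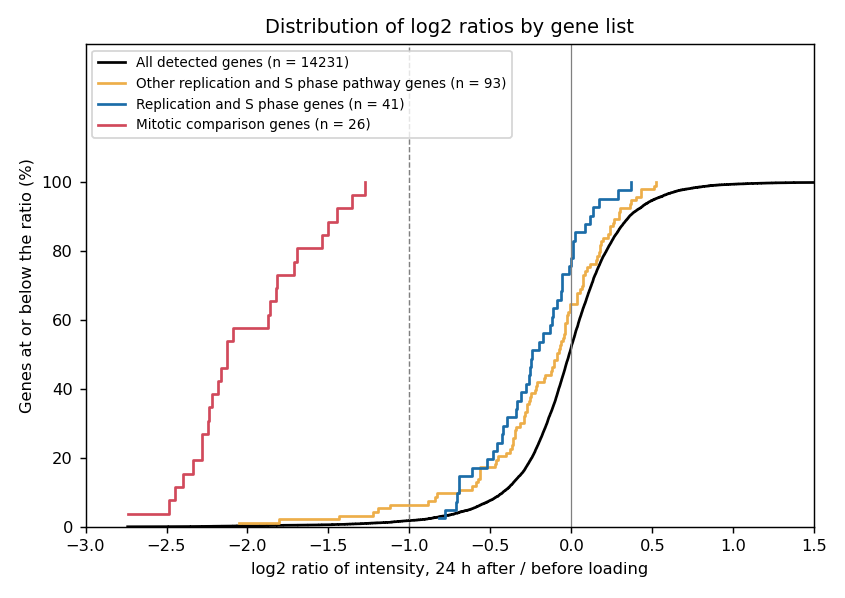
Cumulative share of genes (%, y axis) at or below each log2 ratio of 24 h over before loading (x axis) for the 41 members, 93 other pathway genes, 26 mitotic genes and 14231 detected genes. The dashed line marks 2-fold lower: it is passed by 26 of 26 mitotic genes, 6 of 93 other pathway genes, 0 of 41 members and 1.83% of detected genes.

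Within the members, those with an E2F-type motif did not have the lower median. The 12 detected members with an E2F-type motif had a median of -0.09, and the 22 without had -0.25. Members with a CCAAT box (21) had a median of -0.26 and those without (13) had -0.06. For the CHR the medians were -0.05 (6) and -0.22 (28). The medians of -0.09, -0.06 and -0.05 turned above 0 with scaling to spike-in controls, at 0.03, 0.05 and 0.07. The 12 with an E2F-type motif ran from Mcm5 (-0.82) to E2f2 (0.37). Below 0 were also Uhrf1 (-0.46), Mcm7 (-0.40), Pola1 (-0.28), Pold1 (-0.20), Mcm6 (-0.11), Cdt1 (-0.06) and Lig1 (-0.06). Above 0 were also Mcm3 (0.01), Rfc3 (0.02) and Cdc6 (0.29).

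Markers of the labelled cell type were present on both arrays. All 15 chondrocyte markers were detected, with a median of 0.07, from -0.82 for Col11a1 to 0.56 for Matn1, and the sum of their intensities changed by -0.0010 on the log2 scale. Of 8 macrophage and leukocyte markers 6 were detected. Their ratios ran from -0.15 for Csf1r to 1.14 for Ptprc, which was dim, at 20.9 and 46.1. Their sum, most of it Itgam, changed by -0.04. Endothelial Cdh5, Tek and Emcn, osteocyte Dmp1, and muscle Ckm and Myod1 were well above background on neither array. The summed intensity of the endothelial list, nearly all of it Kdr, changed by -0.04, and its 2 detected genes of 5 were at -0.05 for Kdr and 0.23 for Pecam1. That of the osteoblast list, nearly all of it Col1a1, changed by -0.05, but the median of its 3 detected genes of 5 was -0.64. Col1a1 was at -0.04, Sp7 at -0.64 (78.8 and 50.5) and Ibsp at -2.06 (259 and 61.9). The sum of the muscle list (4 of 6 detected) changed by 0.01, with 2 genes lower and 2 higher, from Acta1 at -0.31 (1001 and 806) to Myh8 at 1.15 (77.4 and 172). Their part in the values above was not tested.

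The position of a spot was looked at as well. Of the 41 members, 4 lay among at least 3 spots within 100 µm that changed more than 2-fold in one direction, as did 5.75% of detected genes. Besides E2f2, these were Gmnn, with 4 of 29 neighbours lower, as was the gene itself, and Mcm7 and Prim1. The latter each had 4 neighbours higher while the gene itself was lower. Without the 4, the median of the members was -0.20. Of the other genes given a ratio above, Ptprc, Col11a1, Matn1 and Rrm2b lay in such areas too. Ptprc, itself higher, had 6 of 26 neighbours higher and 0 lower. Col11a1, itself lower, had 3 of 29 lower and 1 higher, and Rrm2b, also lower, had 4 of 29 lower. Matn1, itself higher, had 4 of 25 lower and 2 higher.

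The way the arrays were scaled moved all values together. Under 11 other processings the median of the members ran from -0.25 to -0.13, and its distance from the median of all detected genes from -0.25 to -0.19. Scaling to spike-in controls moved the median of all detected genes up by 0.12, the only shift above 0.1, and with it the medians of licensing and of the fork proteins past 0, as given above. Of the 41 members, 25 were lower under every processing that gave them a value, 7 were higher and 9 took both signs (Cdt1, Mcm6, Rfc1, Rfc2, Rfc3, Rpa1, Lig1, E2f1 and Chaf1b). Mcm5, Pole, Rfc5 and Rrm1 were more than 1.5-fold lower under every one. The shares of all genes for these counts were not computed. Scalings move all genes by the same amount, so the counts largely follow from the ratios as reported.

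**Figure D5:**
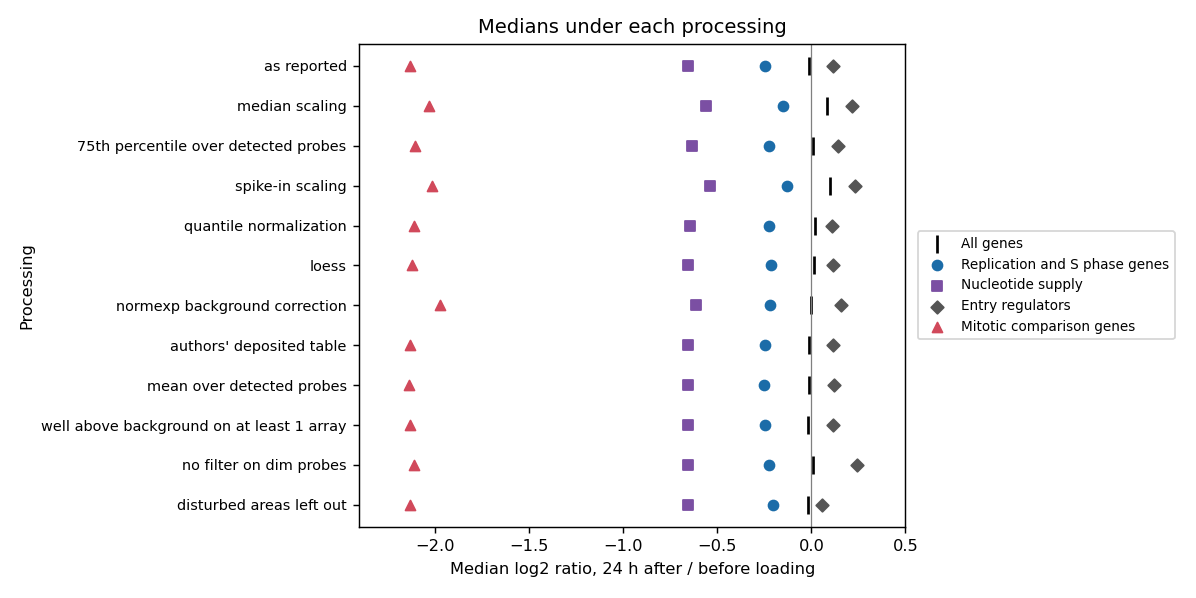
Median log2 ratio of 24 h over before loading (x axis) under the processing reported and 11 others (y axis) for all genes, the members, nucleotide supply, entry regulators and mitotic genes. The order of the 5 medians is the same in each row, with nucleotide supply between -0.65 and -0.54 and entry regulators between 0.06 and 0.24.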

How the data were processed

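Intensities of 2 one-colour arrays were deposited by the authors as Agilent Feature Extraction 10.10.1.1 processed them, per the labels, with background subtracted and the arrays not normalized to each other. A value table deposited by the authors holds the same intensities rounded. The array's probe design is on mm9, and no coordinates of it were used. Outlier spots (141 before loading and 138 at 24 h) were left out. Of 59305 non-control spots, the share well above background was 59.1% on the first array and 57.7% on the second, and 0 were saturated. Log2 intensities were averaged over spots of 1 probe, which gave 55678 probes, and their 75th percentile on each array was subtracted. Accessions without versions were named through RefSeq (GRCm38.p6), which named 27235 probes. Each gene is represented by its brightest probe. Where a gene had several detected probes (3635 genes), their log2 ratios spanned 0.19 in the median gene. The printed error combines the scanner software's errors of both spots, about 10% of the signal for bright spots.

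The members and gene lists were chosen with earlier results of these data known. Named are all members, pathway genes past 2-fold and the highest and lowest of each list described, while other genes, Sp7, Itgam and undetected markers among them, were named after their values were seen. Pairs of members were compared outside the plan, some of them as the highest and lowest of their group. A probe well above background on 1 array only is given as a bound against the other array, at the higher of the probe's own intensity there and the lowest intensity well above background. For the second Cdc6 probe its own intensity was the higher, so the value given is its measured ratio and no bound. Promoter windows were matched by symbol for 36 of 44 members. Arrays have no counting depth, and precision is limited by their number. The calculations were tested on simulated data. Alternatives were other scalings, loess and quantile normalization, normexp (offset 50), probe rules, filters, the deposited table and areas of disturbed spots. Normexp and loess ran in limma 3.58.1 (R 4.3.3), other steps in Python (3.11.15; numpy 2.4.6, pandas 2.3.3).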

Additional observations from a re-analysis of the deposited data

How the results depend on the processing

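No paired analysis was possible because each time point has 1 array, and no replicate could be left out. Under each of the 11 alternatives, the member median and all role group medians moved by less than the within-array error of a single gene. That is not the error of a median, so the comparison does not show that the medians were stable. The largest shift of the all-gene median was 0.12. The member median ran from -0.25 to -0.13. The fork protein median passed 0 with scaling to the array median or to spike-in controls, and the licensing median with the latter. No member past 1.5-fold changed direction under any alternative. Without a filter on dim probes 1 member was more than 2-fold and more than 1.5-fold higher, Ccne2, which was near background on both arrays. The 7 members more than 1.5-fold lower became 4 with scaling to spike-in controls, where 4.03% of all genes were that much lower. As reported, 0 passed 1.5-fold by more than 2 within-array errors, a limit close to 2-fold. The share of all genes past that limit was not computed. Members higher by more than 1 error numbered 2 as reported, 5 with scaling to the array median or to spike-in controls, and 1 with disturbed areas left out. Scaling to the array median or to spike-in controls also moved the median of all genes to 0.08 and 0.10. Members lower ranged from 25 of 41 with scaling to spike-in controls, where 34.5% of all genes were lower, to 33 of 44 with no filter, where 48.4% were. For single members, 1 value moved by more than its error: Cdc45 stood at -0.25 with a normexp correction. For dim genes, signal over background limits the ratio: the error of Pola2, at an intensity of 35.1, was 0.35.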
